A study of Homo sapiens with 6 samples.

Results

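The 10 genes described here encode carriers of small peptides and organic anions: 4 of the SLC15 family (SLC15A1, SLC15A2, SLC15A3 and SLC15A4) and 6 of the SLCO family (SLCO1A2, SLCO2A1, SLCO2B1, SLCO3A1, SLCO4A1 and SLCO5A1). They were chosen by symbol, with earlier results of these data known, to ask which could bring a cyclic peptide into the cell. All 10 were found among the 25680 gene symbols of the count tables. RNA-seq had been done on U87, an established human glioblastoma line of wild-type genotype, after 1 h with 500 nM of EPP6, a cyclic peptide carrying a rhodamine dye. High uptake means the 30% of sorted cells with the most rhodamine fluorescence, and low uptake the 30% with the least, with 3 libraries in each group, numbered 2, 3 and 4. Both groups had received the peptide, so there are no untreated cells, and both are fractions of a single line. Each difference is given as high over low uptake.

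SLC15 proteins are proton-coupled symporters of dipeptides and tripeptides. PEPT1 and PEPT2, the products of SLC15A1 and SLC15A2, work at the plasma membrane, mainly of intestine and kidney, whereas the products of SLC15A3 and SLC15A4 sit in endosomes and lysosomes and pass histidine and small peptides to the cytosol. SLCO proteins, the organic anion transporting polypeptides, carry bile acids, steroid sulfates, thyroid hormones, prostaglandins and some peptides across the plasma membrane without ATP. The liver members SLCO1B1 and SLCO1B3 are known for taking up cyclic peptide toxins such as phalloidin and microcystin.

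In these cells 5 of the 10 genes had enough reads to be tested: the endolysosomal peptide carriers SLC15A4 and SLC15A3 and the organic anion carriers SLCO4A1, SLCO3A1 and SLCO2B1. SLCO2B1 and SLCO4A1 fell in high uptake, to 0.512-fold and 0.723-fold of the low-uptake level. SLC15A4, SLC15A3 and SLCO3A1 did not pass the test, and none of the 5 rose. The plasma membrane peptide carriers gave 1 read (SLC15A1) and 49 reads (SLC15A2) over all 6 libraries. Across all tested genes, 4.29% passed the threshold of 0.05 on edgeR's adjusted p (626 of 14598), 1.26% being lower and 3.03% higher in high uptake. Both calls were close to that threshold in this fit, which did not pair libraries by number. Each was lost when certain single libraries were left out.

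Total counts per library ranged from 13712263 to 40742857. Nothing in the labels says that replicates were separate cultures, so that the p-values cover the variation among these 6 libraries alone, and that variation may be technical. No library looked like a repeat of another: low replicates 3 and 4 were the closest, differing 2.44 times as much as counting noise alone gives (chi-square over its degrees of freedom), against 12.2 to 20.8 times for the other pairs within a group. Markers of a mesenchymal glioblastoma line were mostly abundant, led by VIM at 10534 and 10268 CPM (counts scaled to library size) in high and low uptake. The 7 markers, most of it VIM, summed to between 14947 and 15683 CPM in high and between 14070 and 14795 CPM in low uptake. NES was far lower, at 19.9 and 22.5 CPM. CHI3L1 stood at 113 and 57.0 CPM without overlap between the groups (adjusted p of 0.0890 in edgeR). CAV1 was the 1 marker of 7 that passed the test. The astrocyte markers GFAP (0.564 and 0.666 CPM) and AQP4 (no read) were low or absent, and the 4 astrocyte markers, nearly all of it SLC1A3, summed to between 33.7 and 37.5 CPM in high and between 38.7 and 41.6 CPM in low uptake. The 5 neuronal markers summed to between 50.2 and 54.6 CPM in high and between 39.5 and 43.4 CPM in low uptake, with SNAP25 past the test and no read for STMN2. Endothelial markers summed to between 8.89 and 9.66 CPM in high and between 9.50 and 9.93 CPM in low uptake, and epithelial markers to between 3.86 and 4.45 CPM and between 3.42 and 4.30 CPM. Hepatocyte and enterocyte markers, of tissues rich in these carriers, summed to at most 1.48 and 0.244 CPM in any library, with no read for TTR and CDX1. Immune markers summed to between 15.9 and 19.8 CPM in high and between 18.4 and 21.1 CPM in low uptake, nearly all of it CSF1R, and AIF1 had no read. The sums of the glioblastoma, astrocyte, neuronal and enterocyte markers did not overlap between the groups, as for 24.4% of all tested genes taken singly. For enterocyte markers, none with enough reads to test, the highest high-uptake sum was 0.180 CPM and the lowest low-uptake sum 0.181 CPM. The part of these markers in the results that follow was not tested.

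**Figure D1:**
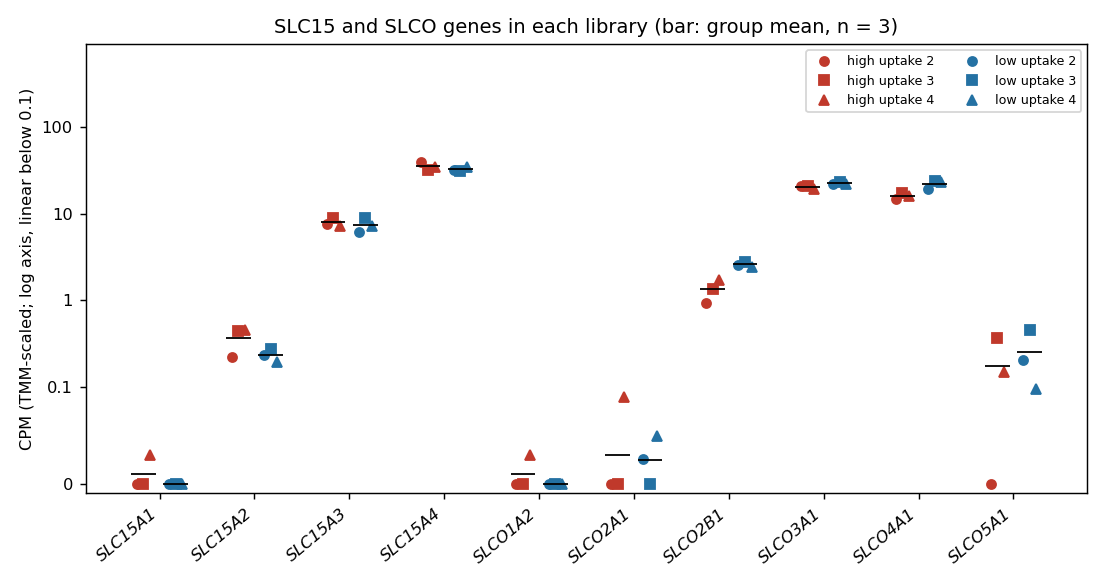
Level of each of the 10 genes in each of the 6 libraries, in CPM scaled by TMM on an axis that is logarithmic above 0.1 and linear below it; red is high uptake, blue is low uptake, symbols mark the replicate number and bars the group means (n = 3). SLCO2B1 and SLCO4A1 sit lower in all 3 high-uptake libraries, and SLC15A1, SLCO1A2 and SLCO2A1 lie at or near 0.

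Among the peptide carriers, SLC15A4 had the most reads. This histidine and peptide carrier of endosomes and lysosomes is known as a partner of nucleic-acid-sensing Toll-like receptors. It stood at 39.4, 31.6 and 34.8 CPM in high replicates 2, 3 and 4 and at 32.0, 31.0 and 34.6 CPM in low replicates 2, 3 and 4. The groups overlapped, and the highest value was that of high replicate 2. The log2 fold change was 0.12 (SE 0.101, 95% interval -0.10 to 0.34), and edgeR's quasi-likelihood test gave an adjusted p of 0.571. The interval corresponds to a level in high uptake between 0.934 and 1.27 times that in low uptake.

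SLC15A3, its lysosomal relative, is known mainly from macrophages and other immune cells. It stood at 7.63, 8.98 and 7.26 CPM in high replicates 2, 3 and 4 and at 6.11, 8.95 and 7.19 CPM in low replicates 2, 3 and 4. The groups overlapped, with replicate 3 the highest in each. The log2 fold change was 0.10 (SE 0.156, 95% interval -0.24 to 0.44, adjusted p of 0.808 in edgeR), and its sign turned without low replicate 2 (-0.046). In the GENCODE 29 models on GRCh38, 76 exonic bases of SLC15A3 lie opposite exons of TMEM132A, which stood at 83.7 and 83.5 CPM in high and low uptake.

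Reads of the 2 plasma membrane peptide carriers were too few to test. SLC15A2, the high-affinity carrier of kidney and brain, had 9, 6 and 15 reads in high replicates 2, 3 and 4 and 9, 6 and 4 reads in low replicates 2, 3 and 4. Pooled over each group this is 0.344 CPM (exact Poisson 95% interval 0.232 to 0.491) in high and 0.234 CPM (0.141 to 0.366) in low uptake, intervals that overlap. SLC15A1, the intestinal carrier, had 1 read, in high replicate 4, and none in low uptake, where 3 reads over the group, the limit used here for a count of 0, would be 0.0370 CPM. The exact Poisson 95% upper limit for that 0 is 0.0455 CPM. Such intervals and limits cover counting error only.

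SLCO2B1 showed the largest difference of the tested members. It encodes a broadly expressed carrier of steroid sulfates and many drugs. It had 38, 18 and 58 reads in high replicates 2, 3 and 4 and 99, 61 and 50 reads in low replicates 2, 3 and 4. Scaled to depth this is 0.941, 1.34 and 1.74 CPM in high against 2.56, 2.77 and 2.44 CPM in low uptake. Every high-uptake value lay below every low-uptake value, and the high-uptake libraries were spread more widely, at 1.34 ± 0.400 against 2.59 ± 0.166 CPM (mean ± SD, n = 3 each). The log2 fold change was -0.96 (SE 0.240, 95% interval -1.49 to -0.44, adjusted p of 0.0458 in edgeR). In bulk RNA, fewer cells that express a gene and less RNA per cell cannot be told apart.

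SLCO2B1 no longer passed once high replicate 2 (log2 -0.70, adjusted p 0.134), low replicate 2 (0.0629), low replicate 3 (0.137) or low replicate 4 (0.113) was taken out. The same held when both libraries numbered 2 were taken out (log2 -0.70, adjusted p 0.0851) or the gene-length trend was removed (0.0502). Its log2 fold change ranged from -1.26 to -0.70 and its adjusted p from 0.00136 to 0.137 over the 18 alternatives. Fits without 1 library called between 1.55% and 4.92% of all tested genes.

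SLCO4A1 encodes a carrier of thyroid hormones, prostaglandins and estrone sulfate found in many tissues and tumours. It stood at 14.7, 17.2 and 16.1 CPM in high replicates 2, 3 and 4 and at 19.3, 23.5 and 23.3 CPM in low replicates 2, 3 and 4. All 3 high-uptake values lay below the lowest low-uptake value, that of low replicate 2. The group levels were 16.0 ± 1.28 and 22.1 ± 2.37 CPM (mean ± SD, n = 3 each), with a log2 fold change of -0.47 (SE 0.113, 95% interval -0.71 to -0.22, adjusted p of 0.0413 in edgeR).

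SLCO4A1 no longer passed once high replicate 2 (adjusted p 0.128), high replicate 4 (0.128), low replicate 3 (0.150) or low replicate 4 (0.171) was taken out. It did pass when both libraries numbered 2 were taken out (log2 -0.50, adjusted p 0.00398). Its log2 fold change ranged from -0.57 to -0.41 and its adjusted p from 8.77e-05 to 0.171 over the 18 alternatives. An antisense gene, SLCO4A1-AS1, shares 346 exonic bases with SLCO4A1 on the opposite strand, 8.54% of the SLCO4A1 exons in the GENCODE 29 models. Whether counting used strand is not given in the sources used here, so reads of that stretch cannot be assigned with certainty. For the other members, the most alike gene of the count tables matched at most 5.6% of the longest transcript at 90% identity or more. For SLCO4A1 it was SLCO4A1-AS1 (11.3%), and less alike genes were not recorded. SLCO4A1-AS1 stood at 3.86, 3.04 and 3.93 CPM in high replicates 2, 3 and 4 and at 3.80, 6.23 and 4.84 CPM in low replicates 2, 3 and 4. These groups overlapped, and the log2 fold change of -0.41 (SE 0.193) did not pass (adjusted p of 0.291 in edgeR).

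SLCO3A1 encodes a carrier of prostaglandins and thyroxine that is expressed in brain. It stood at 20.6, 20.8 and 19.0 CPM in high replicates 2, 3 and 4 and at 21.9, 23.4 and 22.0 CPM in low replicates 2, 3 and 4. The groups did not overlap, as for 24.4% of all tested genes, but the difference was small, at 0.897-fold. The log2 fold change was -0.16 (SE 0.0926, 95% interval -0.36 to 0.05, adjusted p of 0.404 in edgeR). In all, 3 of the 5 tested members had groups that did not overlap, each lower in high uptake, which held for 11.4% of all tested genes.

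**Figure D2:**
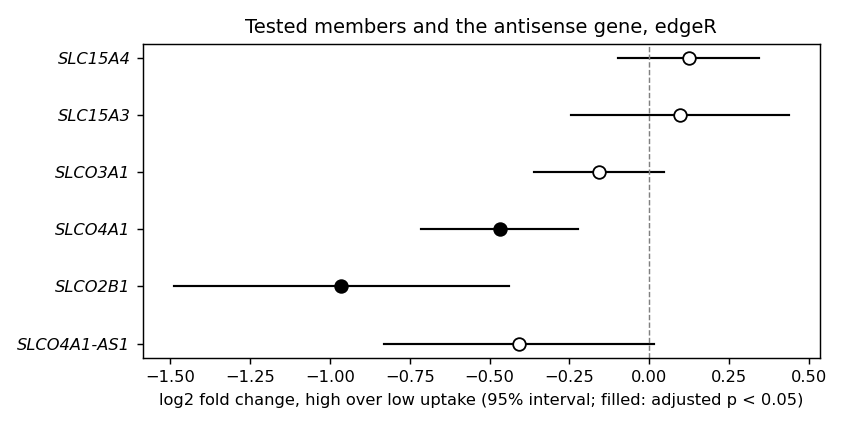
Log2 fold change of high over low uptake for the 5 tested members and for SLCO4A1-AS1, with 95% intervals from edgeR's fit on 6 libraries; filled points have an adjusted p under 0.05. The intervals of SLCO2B1 (-1.49 to -0.44) and SLCO4A1 (-0.71 to -0.22) lie below 0, and those of the others include it.

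The remaining SLCO members were near the limit of detection. SLCO5A1, whose substrates are poorly known, had 0, 5 and 5 reads in high replicates 2, 3 and 4 and 8, 10 and 2 reads in low replicates 2, 3 and 4, pooled levels of 0.115 CPM (exact Poisson 95% interval 0.0550 to 0.211) and 0.247 CPM (0.151 to 0.381). The intervals overlap, and the gene was not tested. SLCO2A1, the prostaglandin transporter, had 3 reads in high replicate 4 and none in high replicates 2 and 3, and 1 read each in low replicates 2 and 4. SLCO1A2, known from the blood-brain barrier, had 1 read, in high replicate 4.

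Family members outside the 10 had 2 reads at most over all 6 libraries. Of SLC15A5, SLCO1B1, SLCO1B3, SLCO1B7, SLCO1C1, SLCO4C1 and SLCO6A1, none was tested and 4 of the 7 had no read in any library. SLCO1B1 had 2 reads in high and 0 in low uptake, and SLCO1B3 had 0 and 1. For a gene with no read in a group, the limit of 3 reads is 0.0344 CPM in high and 0.0370 CPM in low uptake, and the exact Poisson 95% upper limit 0.0423 and 0.0455 CPM.

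Levels of different genes were compared per length, in the authors' FPKM, which scale reads to gene length and library size. The order of mean FPKM over the 6 libraries was SLC15A4 (12.2), SLCO4A1 (6.86), SLCO3A1 (3.69), SLC15A3 (3.63), SLCO2B1 (0.443), SLC15A2 (0.0548), SLCO5A1 (0.0531), SLCO2A1 (0.00653), SLC15A1 (0.00160) and SLCO1A2 (6.34e-04). SLC15A4 lay above 60.5% of the tested genes at this scale, SLCO4A1 above 46.5% and SLCO2B1 above 9.66%. SLCO3A1 and SLC15A3 did not differ beyond their spread, at 3.46 ± 0.142 and 3.72 ± 0.394 FPKM in high and 3.92 ± 0.121 and 3.53 ± 0.661 FPKM in low uptake (mean ± SD, n = 3 each), and changed places between the groups. SLC15A2 and SLCO5A1 also differed by less than their spread and changed places, at 0.0669 ± 0.0233 and 0.0427 ± 0.0457 FPKM in high and 0.0427 ± 0.00690 and 0.0635 ± 0.0455 FPKM in low uptake. SLCO2A1, SLC15A1 and SLCO1A2 rest on 5 reads, 1 read and 1 read, too few to order.

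Added over its 4 genes, the SLC15 family made up 16.3 ± 1.15 FPKM in high and 15.3 ± 0.667 FPKM in low uptake, of which SLC15A4 was 76.6% and 76.7%. The 6 SLCO genes summed to 9.51 ± 0.521 FPKM in high and 12.6 ± 0.904 FPKM in low uptake. The SLCO share of the 10 genes was between 33.8% and 39.4% in the high-uptake libraries and between 44.2% and 46.3% in the low-uptake libraries, so that the groups did not overlap. This sum is led by SLCO4A1 and SLCO3A1, and it carries no test because the members were chosen with results of these data known.

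**Figure D3:**
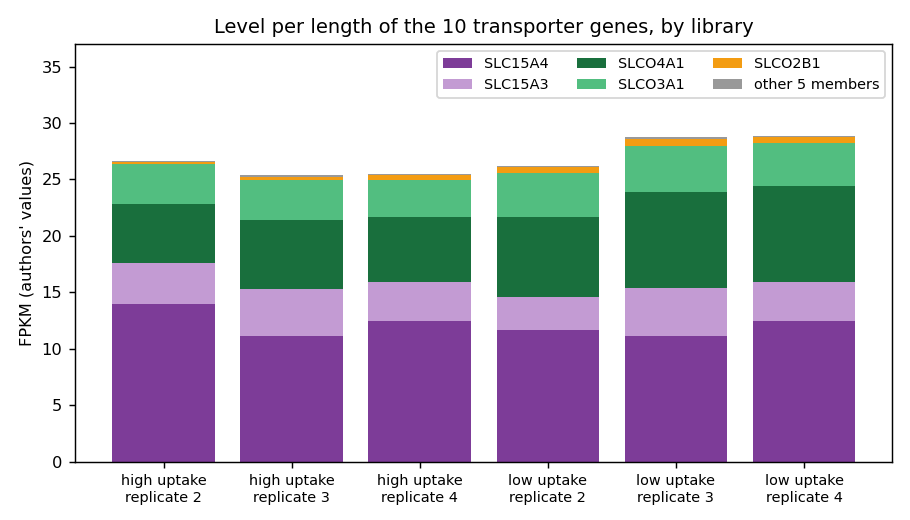
Stacked FPKM of the 10 genes in each library, from the authors' values; purple shades are SLC15 genes, green and orange SLCO genes, and grey the other 5 members, too low to see. The SLC15 part has similar heights in both groups (15.4 to 17.6 FPKM in high and 14.6 to 16.0 in low uptake), and the SLCO part is taller in low uptake.

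The sequence upstream of the start was set beside these levels, because SLCO2B1 differed most among the tested members. RefSeq gave promoters on GRCh38.p14 for 6 of the 10 genes: SLC15A1, SLC15A2, SLC15A4, SLCO1A2, SLCO2B1 and SLCO3A1. The count tables were made on hg19, so these coordinates are not those of the counting. The 250 bases before each start follow for both starts of SLCO2B1, for SLC15A4, the highest member, and for SLC15A2, with CpG dinucleotides in capitals.
SLCO2B1, chr11:75150857-75151106, plus strand: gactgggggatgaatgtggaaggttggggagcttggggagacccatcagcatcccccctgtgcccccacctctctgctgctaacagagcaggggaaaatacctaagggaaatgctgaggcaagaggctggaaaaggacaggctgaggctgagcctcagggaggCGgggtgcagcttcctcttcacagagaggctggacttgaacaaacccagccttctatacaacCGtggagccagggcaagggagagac
SLCO2B1, chr11:75159582-75159831, plus strand: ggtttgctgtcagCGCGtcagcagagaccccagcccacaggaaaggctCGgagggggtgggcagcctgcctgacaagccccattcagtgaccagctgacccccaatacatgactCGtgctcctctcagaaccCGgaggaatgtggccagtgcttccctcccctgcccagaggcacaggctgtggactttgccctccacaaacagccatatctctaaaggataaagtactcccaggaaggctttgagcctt
SLC15A4, chr12:128823959-128824208, minus strand: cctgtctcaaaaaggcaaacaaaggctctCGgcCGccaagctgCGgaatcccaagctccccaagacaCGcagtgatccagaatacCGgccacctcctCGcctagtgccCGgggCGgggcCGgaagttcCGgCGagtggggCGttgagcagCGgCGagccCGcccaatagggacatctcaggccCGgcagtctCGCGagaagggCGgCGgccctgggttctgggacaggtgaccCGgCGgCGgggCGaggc
SLC15A2, chr3:121894151-121894400, plus strand: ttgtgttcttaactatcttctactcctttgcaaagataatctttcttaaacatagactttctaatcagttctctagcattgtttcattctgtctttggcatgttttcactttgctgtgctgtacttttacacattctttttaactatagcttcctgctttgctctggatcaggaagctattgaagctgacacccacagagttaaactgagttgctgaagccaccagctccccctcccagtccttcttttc

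The windows of SLCO2B1 hold 2 and 5 CpG dinucleotides, that of SLC15A4 holds 24 and that of SLC15A2 holds 0, against a median of 11 over 35116 promoters of the same length. SLCO3A1 has 32 in each of its 2 windows. SLC15A1 has 26 although it gave 1 read, whereas the windows of SLCO1A2, also with 1 read, have 0 and 2. CpG content and level thus did not run together over all 6 genes with a window. The start of the SLC15A1 window was not matched in the GENCODE transcripts, nor was that of the downstream SLCO3A1 window. Among matched starts, the upstream SLCO3A1 window holds 32 CpG at a mean of 3.69 FPKM, against 24 at 12.2 FPKM for SLC15A4. The GC box GGGCGG, searched on both strands, occurs 3 times in the SLC15A4 window and not in those of SLCO2B1, SLC15A2 or SLCO1A2. It occurs 1 time in the SLC15A1 window and 3 and 2 times in those of SLCO3A1, and 42.6% of all promoters hold it. The motif CCAAT, searched on both strands and held by 32.0% of promoters, occurs once in the SLC15A4 window and once in the downstream SLCO2B1 window. It also occurs once in the upstream SLCO3A1 window and once in 1 SLCO1A2 window. Such matches describe these letters only.

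Neighbouring systems were read from lists of genes that work with these carriers or on their substrates. All tested genes together had a median log2 fold change of -0.00, and 4.29% of them passed in edgeR (3.03% higher and 1.26% lower in high uptake). Of 34 other organic ion and bile acid transporters (SLC22, SLC47, SLC51 and SLC10 families), 13 were tested and none passed in edgeR (median 0.04), while 3 of the 13 had an unadjusted p under 0.05, as had 18.4% of all tested genes. SLC22A23, an orphan of the SLC22 family, had the smallest p, at 56.0 ± 4.60 and 44.1 ± 2.39 CPM (n = 3 each, log2 0.35, adjusted p of 0.0627 in edgeR). It passed in DESeq2 (adjusted p 0.0243) but not in limma. In edgeR it also passed without the filter (0.0379), with the replicate block (4.09e-04), with the GC trend removed (0.00514) and with both (2.76e-04). It did not pass in the other 13 of 18 alternatives. DESeq2 called 6.08% and limma 4.4% of all tested genes. Those edgeR settings called 4.31%, 21.8%, 17.1% and 27.8%, in that order.

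Proton gradients drive the SLC15 carriers, and sodium-proton exchangers with their scaffolds help to set them. Of 12 tested, SLC9A7 rose, 11 did not pass and none fell (median log2 0.12). SLC9A7, an exchanger of the Golgi and endosomes, stood at 62.2 ± 7.65 and 42.2 ± 0.813 CPM (n = 3 each, log2 0.56, adjusted p of 0.0112 in edgeR), and lost its call without low replicate 4 (adjusted p 0.0563). Of 13 listed genes of endolysosomal signalling and muropeptide sensing, 8 were tested. TASL, TLR7, TLR8 and TLR9 were among those with too few reads to test. TLR3, an endosomal receptor for double-stranded RNA, fell and 7 did not pass (median log2 -0.02). Its place on the list does not make TLR3 a partner of SLC15A4. TLR3 stood at 2.67 ± 0.268 and 4.31 ± 0.509 CPM (n = 3 each, log2 -0.70, adjusted p of 0.0370 in edgeR), and held only when no library or high replicate 3 was taken out (adjusted p otherwise 0.0652 to 0.110, and 0.129 when both libraries numbered 2 were taken out).

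Genes of the substrates gave single calls. Of 14 tested prostaglandin genes, 1 fell and 1 rose (median log2 0.02). PTGR1, a reductase that inactivates leukotrienes and prostaglandins, fell from 90.9 ± 4.53 to 66.0 ± 6.62 CPM (n = 3 each, log2 -0.46, adjusted p of 0.0187 in edgeR), a call that ended when high replicate 2, low replicate 3 or low replicate 4 was taken out (0.0536 to 0.0601). PTGDS, a prostaglandin D synthase, rose on 52 reads in high and 13 reads in low uptake (log2 1.85, SE 0.407, adjusted p of 0.0279 in edgeR), a call lost without any library but high replicate 3 (adjusted p from 0.0612 to 0.107) and with both numbered 2 taken out (0.0616). Of 5 tested thyroid hormone genes, CRYM, a cytosolic protein that binds thyroid hormone, fell by 0.43 on the log2 scale (adjusted p of 0.0321 in edgeR) and 4 did not pass (median log2 0.11). It did not pass once high replicate 2 or 4, or low replicate 3 or 4, was taken out (adjusted p 0.0938 to 0.157), or with the length trend removed (0.0501).

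Of 8 tested genes of steroid sulfate handling, ABCG2, an exporter of sulfated steroids and drugs, rose by 0.48 (adjusted p of 0.0439 in edgeR) and 7 did not pass (median log2 0.05). Of 29 tested peptidases, FAP and ECE1 rose and 27 did not pass (median log2 0.04). That is 6.90% called, against 4.29% of all tested genes. FAP, a surface peptidase that cuts after proline, stood at 78.4 ± 9.14 and 49.7 ± 2.20 CPM (n = 3 each, log2 0.66, SE 0.0980, adjusted p of 0.00395 in edgeR) and passed under each of the 18 alternatives. ECE1, the endothelin-converting enzyme, rose by 0.36 (adjusted p of 0.0492 in edgeR). Taking out any 1 of the 6 libraries ended the ECE1 call (adjusted p 0.0751 to 0.125), and any but high replicate 3 ended that of ABCG2 (0.0743 to 0.160). With all 6 libraries in, ECE1 also lost its call with DESeq2 size factors (0.0543), upper quartile scaling (0.0695), library totals (0.0598), the filter of 50 counts in 3 libraries (0.0693) and the length trend removed (0.119), and ABCG2 with upper quartile scaling (0.0516), library totals (0.0596) and the length trend removed (0.0672). Of 8 tested transcription factors known at promoters of these carriers none passed in edgeR (median log2 0.18), while 4 of the 8 had an unadjusted p under 0.05 (18.4% of all tested genes) and HIF1A had the smallest p (log2 0.31, adjusted p of 0.0560 in edgeR, 0.0175 in DESeq2 and 0.0485 in limma).

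**Figure D4:**
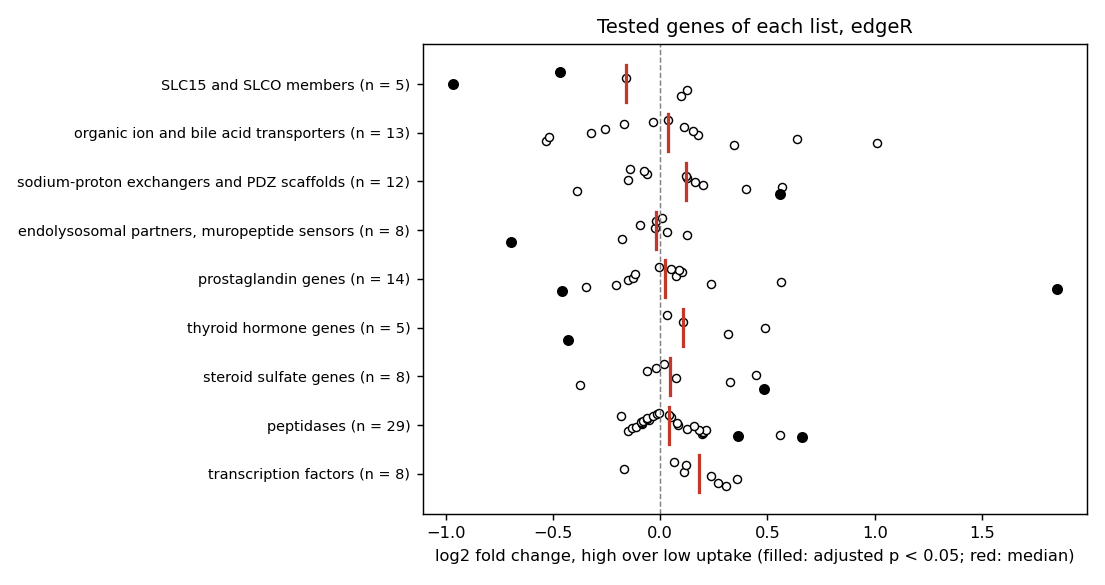
Log2 fold change of the 5 tested members and of every tested gene in 8 related lists, from edgeR's fit; filled points have an adjusted p under 0.05 and red bars are medians, with the number of tested genes beside each name. Most points are open, and the medians of the 8 lists lie between -0.02 and 0.18.

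Across the 6 libraries, 3 genes whose log CPM ran most like that of SLC15A4 were ZNF519, ASGR1 and ARID4A (Pearson's r = 0.984, 0.982 and 0.978, 6 libraries). Those most like SLCO3A1 were MRPL11, RPS16 and CXorf40A (r = 0.999, 0.986 and 0.982). With 6 libraries from 2 groups such values are a description: r was above 0.95 for 14 genes with SLC15A4 and for 40 genes with SLCO3A1.

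The authors' deposited table, a list of 2305 gene symbols with no values, names SLCO4A1 and SLCO2B1 and none of the other 8 members. It holds 15.8% of the genes tested here and 620 of the 626 genes called. The list comes from these same data, so it is no separate evidence for the 2 calls.

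**Figure D5:**
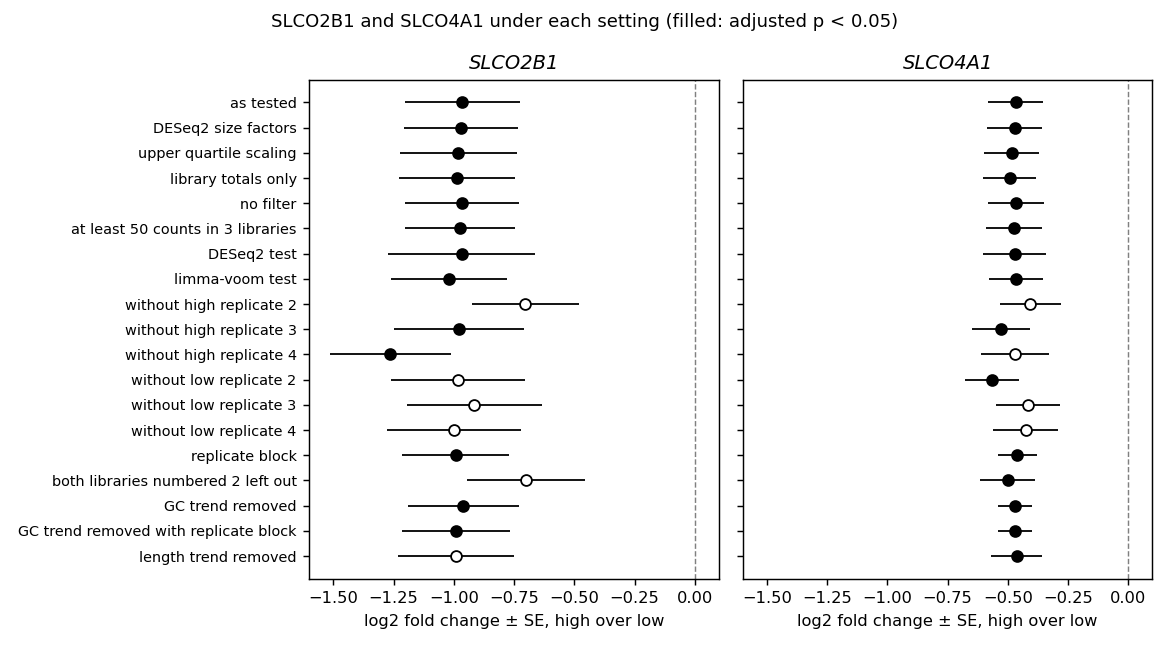
Log2 fold change ± SE of SLCO2B1 and SLCO4A1 as tested and under each of 18 alternatives; filled points have an adjusted p under 0.05. All points lie below 0, and open points, where the call was lost, are mostly those with a library left out.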

How the data were processed

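RNA-seq came from 6 libraries of U87 cells. Per the labels' protocols, total RNA was extracted on columns and libraries were made with a directional kit. The submitters' processing notes name fastp, STAR, featureCounts and hg19; tool versions, annotation and strand setting, not given in the sources used here, remain unknown. The deposited files hold raw read counts per gene symbol, with FPKM and TPM columns by the authors, per the file headers. FPKM served to compare levels between genes and to recover gene-model length, and TPM to check their order. A further deposited list holds gene symbols only (no other value or score).

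Counts were tested with edgeR 4.0.16: filterByExpr (minimum count 10, minimum total 15) kept 14598 of 25680 genes, with TMM scaling, a quasi-likelihood F-test without covariates, two-sided, Benjamini-Hochberg adjustment over all tested genes and a threshold of 0.05. CPM are TMM-scaled with a prior count of 2 for their logarithm. SE is the log2 fold change divided by the square root of F. Alternatives were other scalings and filters, DESeq2 1.42.0, limma 3.58.1, each library left out, a replicate block, both libraries numbered 2 left out, and GC or length trends removed (splines with 5 degrees of freedom, GC from GENCODE 29 transcripts for 92.9% of tested genes). The edgeR fit was tested on simulated data.

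The 10 members and the lists were chosen with earlier results of these data known. Named genes were the 10 members, for each list the 2 called genes of smallest p (or else the 1 gene of smallest p), and the 3 genes most correlated with each of the 2 tested members of highest mean CPM.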

Additional observations from a re-analysis of the deposited data

How the results depend on the processing

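Both calls among the members, SLCO2B1 and SLCO4A1, held under every scaling, filter and other test tried (2 members called each time). These settings called 3.69% to 6.08% of all tested genes. Both log2 fold changes stayed negative in all 18 alternatives. Leaving out 1 library gave 0 to 2 called members and 232 to 738 called genes, against 2 and 626 as tested; fewer samples enter those fits. With both libraries numbered 2 left out 1 member passed (SLCO4A1), beside 5.51% of all tested genes. With the length trend removed 1 member passed (SLCO4A1), beside 3.33% of all tested genes. The cause was not tested. SLC15A3 turned sign without low replicate 2 (log2 -0.046) and with both libraries numbered 2 left out (log2 -0.033), in each case without passing; its leave-one-out range was -0.046 to 0.25. The order of the members by mean TPM was that by FPKM for all 10.

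The replicate block called 3176 genes (21.8% of those tested), removal of the GC trend 2498 (17.1%), and both together 4052 (27.8%). SLCO2B1 and SLCO4A1 were called in each, and the cause was not tested. Of the calls, 70.6% were higher in high uptake as tested, 58.7% with the GC trend removed, 55.4% with the block and 53.8% with both. With the replicate block SLCO2B1 had an adjusted p of 0.00136 and SLCO4A1 of 9.20e-05. Same-numbered libraries correlated by 0.452, 0.304 and 0.0873 in their deviations from the group means for numbers 2, 3 and 4. Other pairs ranged from -0.395 to 0.216. Each high library correlated most with the low library of its number, but low replicate 4 correlated more with high replicate 3 (0.216). The labels do not say that numbers mark pairs, so the fit as tested carried no block, and pairing was not settled. Over the tested members and named list genes, 204 single-gene results under an alternative kept direction and side of the threshold, 50 lost the call, 12 gained it and 2 changed sign. The 5 members under the count filter had too few reads to enter the fit as tested. Without the filter all 10 members were tested and only SLCO2B1 and SLCO4A1 passed, beside 4.31% of all genes in that fit. The filter kept 6 members without low replicate 3 and 7 without low replicate 4. No member passed in either, beside 1.85% and 1.55% of all genes tested there.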
